A study of Arabidopsis thaliana with 16 samples.

Results

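A set of 38 Arabidopsis genes changed one way with salt in imbibed WT seeds and the other way in unsalted seeds of dog1-3, a mutant of the dormancy gene DOG1, against unsalted WT seeds. Members were chosen from their measured levels, as loci with a mean of at least 20 counts over 16 libraries whose change with NaCl in WT and whose change in dog1-3 mock against WT mock both exceeded 1.5-fold on the log2(CPM + 1) scale, with opposite signs. CPM denotes counts scaled to a common library size with edgeR's TMM factors, and each change is a difference between means of 4 libraries. Of 37336 loci, 9934 had enough counts, and 38 of these were members. In class A, 31 members were higher with NaCl in WT and lower in dog1-3 mock, and in class B 7 members were lower with NaCl in WT and higher in dog1-3 mock. A further 424 loci passed both limits with the same sign, 250 of them higher and 174 lower in both comparisons. Both changes share the WT mock libraries, whose spread moves them the same way, so that this count is not compared with the 38 members.

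Seeds of dog1-3, a SALK insertion mutant of DOG1 in the Col-0 background, and of Col-0 (WT) were imbibed for 72 h at 4°C, and polyadenylated RNA ends were counted by 3'RNA-seq. The groups were dog1-3 NaCl, dog1-3 mock, WT NaCl and WT mock, with 4 biological replicates each, where NaCl denotes 100 mM salt and mock its absence. Since 1 mutant line was compared with WT, the loss of DOG1 and other differences between the lines cannot be told apart. Mock and NaCl reverse transcription reactions were pooled separately, so that pool and treatment cannot be told apart in any comparison of NaCl with mock, whereas dog1-3 and WT were compared within a pool.

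DOG1 (Delay of Germination 1) is a central regulator of seed dormancy, and seeds that lack it germinate more readily. Salt in the medium delays germination and induces genes of the osmotic and ionic stress response. Small nucleolar RNAs (snoRNAs), which made up a part of the set, guide the chemical modification of ribosomal RNA: box C/D snoRNAs direct ribose methylation and box H/ACA snoRNAs direct the conversion of uridine to pseudouridine.

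Of the 31 class A members, 21 were protein-coding genes, 6 were snoRNA loci, 2 were lncRNA loci, 1 was another non-coding RNA and 1 was a transcribed pseudogene, whereas all 7 class B members were protein-coding. The 6 snoRNA loci are shown because this class had a larger share of members than protein-coding genes, with 6 of 37 kept snoRNA loci (16.2%) among the members, against 28 of 9749 kept protein-coding genes (0.287%). Sequences were read from the RefSeq TAIR10.1 genome, 5′ to 3′ on the strand of the gene. AtsnoR6-3 (AT4G04465) lies at chr4:1445731-1445846 on the minus strand and AtsnoR19-2 (AT5G08860) at chr5:23683176-23683262 on the minus strand. In both the capitals mark the C box TGATGA and the D box CTGA of box C/D snoRNAs. The other snoRNA loci are of box H/ACA length, and the capitals mark the triplet that lies 3 bases before the 3′ end, where this class carries ACA. They are snoR139 (AT5G07105) at chr5:19624720-19624869 on the plus strand, snoR142 (AT3G02725) at chr3:4411290-4411443 on the plus strand, snoR85b (AT1G09867) at chr1:29911240-29911379 on the minus strand and snoR80-3 (AT4G06305) at chr4:8712523-8712660 on the minus strand.
AtsnoR6-3: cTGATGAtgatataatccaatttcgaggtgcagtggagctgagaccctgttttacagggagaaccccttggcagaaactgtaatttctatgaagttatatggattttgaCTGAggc
AtsnoR19-2: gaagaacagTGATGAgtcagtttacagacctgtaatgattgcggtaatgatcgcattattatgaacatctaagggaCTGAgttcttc
snoR139: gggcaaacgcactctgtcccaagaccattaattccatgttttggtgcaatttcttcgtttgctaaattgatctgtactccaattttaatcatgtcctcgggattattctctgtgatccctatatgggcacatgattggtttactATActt
snoR142: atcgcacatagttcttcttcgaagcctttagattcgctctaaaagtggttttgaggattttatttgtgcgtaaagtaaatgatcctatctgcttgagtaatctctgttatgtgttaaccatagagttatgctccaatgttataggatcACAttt
snoR85b: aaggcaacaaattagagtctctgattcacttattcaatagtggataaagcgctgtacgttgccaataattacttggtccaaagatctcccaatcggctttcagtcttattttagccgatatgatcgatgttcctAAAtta
snoR80-3: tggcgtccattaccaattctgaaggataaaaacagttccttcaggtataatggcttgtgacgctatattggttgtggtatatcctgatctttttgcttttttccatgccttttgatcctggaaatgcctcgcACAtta

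The triplet was ACA in snoR142 and snoR80-3, ATA in snoR139 and AAA in snoR85b. Priming used oligo(dT), and the 20 genomic bases after the annotated 3′ ends held between 3 and 8 A. The longest run of A there was 5 bases, after snoR142, and the longest inside a locus was 5 bases, in snoR80-3. Levels of the snoRNA loci thus count RNA ends primed by oligo(dT), and which forms of these RNAs were primed was not tested. Reads of the snoRNA loci are uncertain where near-identical copies exist: all 38 stretches of 50 bases in AtsnoR19-2 and 66 of 89 in snoR80-3 occur more than 1 time in the genome, against 4 of 67 in AtsnoR6-3 and none in the other snoRNA members. Among the remaining members, MT1B (12 of 251 stretches at its 3′ end) and AT1G70185 (17 of 251) also had repeated stretches.

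Total counts ranged from 1416354 to 2416698 in dog1-3 NaCl, from 1751431 to 2751027 in dog1-3 mock, from 1725172 to 2086789 in WT NaCl and from 2479170 to 3635844 in WT mock. The 11 seed marker genes (storage proteins, oleosins and EM proteins) were detected in all groups, and their summed level was 98904 to 127810 CPM in dog1-3 NaCl, 79596 to 92738 CPM in dog1-3 mock, 50010 to 73575 CPM in WT NaCl and 35268 to 59787 CPM in WT mock. All 4 endosperm markers were detected as well, with sums of 22665 to 29257 CPM in dog1-3 NaCl, 25641 to 34226 CPM in dog1-3 mock, 16471 to 24059 CPM in WT NaCl and 15079 to 21487 CPM in WT mock. Seedling and leaf markers (4 genes, with 3 or 4 detected per group) summed to 807 to 985 CPM in dog1-3 NaCl, 473 to 554 CPM in dog1-3 mock, 548 to 625 CPM in WT NaCl and 365 to 448 CPM in WT mock. The 2 pollen markers summed to at most 7.63 CPM. The part of these marker differences in the changes of the members was not tested, and in whole seeds fewer cells of a type and less RNA per cell cannot be told apart.

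**Figure D1:**
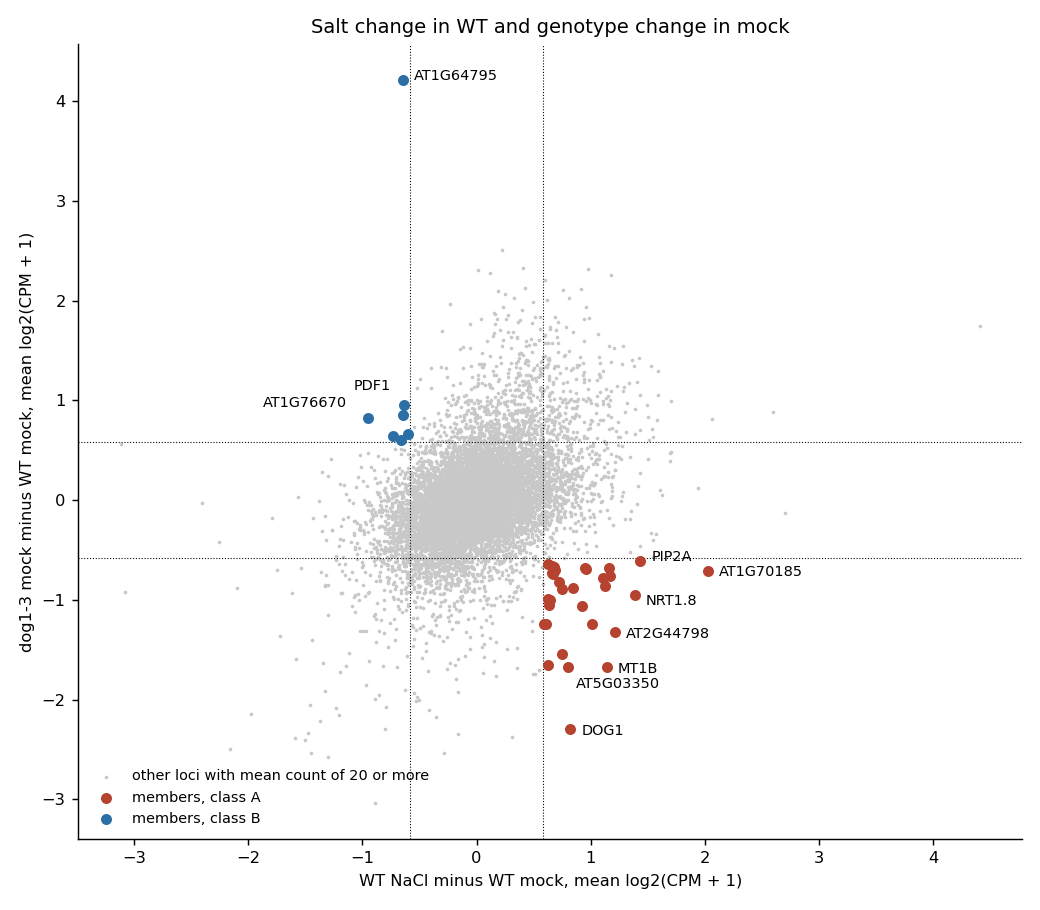
Change with NaCl in WT (x axis) against change in dog1-3 mock relative to WT mock (y axis), both as differences of mean log2(CPM + 1), for all 9934 loci with a mean count of at least 20. Dotted lines mark 1.5-fold in either direction, and the 31 class A members (red) and 7 class B members (blue) lie in the lower right and upper left corners, with AT1G64795 far above the rest.

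DOG1 itself (AT5G45830, chr5:18589418-18591506, minus strand) was a class A member and checks the labels. Its level was 17.5, 23.3, 17.0 and 17.0 CPM in dog1-3 NaCl and 14.8, 19.0, 14.2 and 14 CPM in dog1-3 mock. In WT it was 158, 123, 168 and 123 CPM in NaCl and 80.4, 103, 76.1 and 63.7 CPM in mock. Every dog1-3 library lay below every WT library, and in WT the NaCl libraries all lay above the mock libraries. The 2 changes used by the rule were 0.82 with NaCl in WT and -2.30 in dog1-3 mock. Within dog1-3 the NaCl and mock libraries overlapped, with a log2FC of 0.24 (standard error 0.22, edgeR adjusted p = 0.451). In NaCl it was 7.66-fold lower in dog1-3 than in WT (log2FC -2.94, standard error 0.16, edgeR adjusted p = 1.26e-17).

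The rule was applied to 2 comparisons, so that the levels there only describe the members. A gene was called where edgeR's quasi-likelihood test gave a change above 1.5-fold and a p, adjusted by Benjamini-Hochberg, below 0.05. NaCl against mock in WT called 16.5% of 12697 tested genes, 9.46% up and 7.07% down, and dog1-3 against WT in mock called 18.4%, 9.94% up and 8.44% down. Of the 38 members, 37 were called in both comparisons with opposite signs, as were 58 of all tested genes (0.457%), and nothing is read from this since the rule used the same comparisons. The members closest inside the limits were AT2G39130, ACYB-2 and SMO1-1, whose smaller changes were 0.59, 0.60 and 0.60, and the loci closest outside were AT1G28600, AT3G07215 and APK1A at 0.58 each. Scaling moved the borders of the set: with library size alone, 36 loci met the rule and only 25 of them were among the 38. Without 1 library the number of members lay between 32 (without WT NaCl replicate 2) and 44 (without WT NaCl replicate 1).

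The dog1-3 NaCl libraries entered the choice of the members only through the minimum mean count over all 16 libraries. Comparisons of dog1-3 NaCl with dog1-3 mock and with WT NaCl, however, each share 4 libraries with the rule, so that the low or high values that made a gene a member return in them with the opposite sign, and the members' shares below are set in part by their choice. NaCl against mock in dog1-3 called 25 members, against 14.7% of all tested genes. Of the 31 class A members, 22 were upregulated by NaCl in dog1-3, against 7.53% of all genes, and none was downregulated, with a median log2FC of 0.96 against -0.02 over all tested genes. Of the 7 class B members, 2 were downregulated (ACYB-2 and SMO1-1), against 7.16% of all genes, and 1 was upregulated (AT1G64795). In NaCl, dog1-3 against WT called 30 members, against 15.7% of all genes. Among them 24 of 31 class A members were downregulated, against 7.54% of all genes, with a median log2FC of -0.90. In the same comparison 6 of 7 class B members were upregulated, against 8.16% of all genes, with a median log2FC of 1.30.

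**Figure D2:**
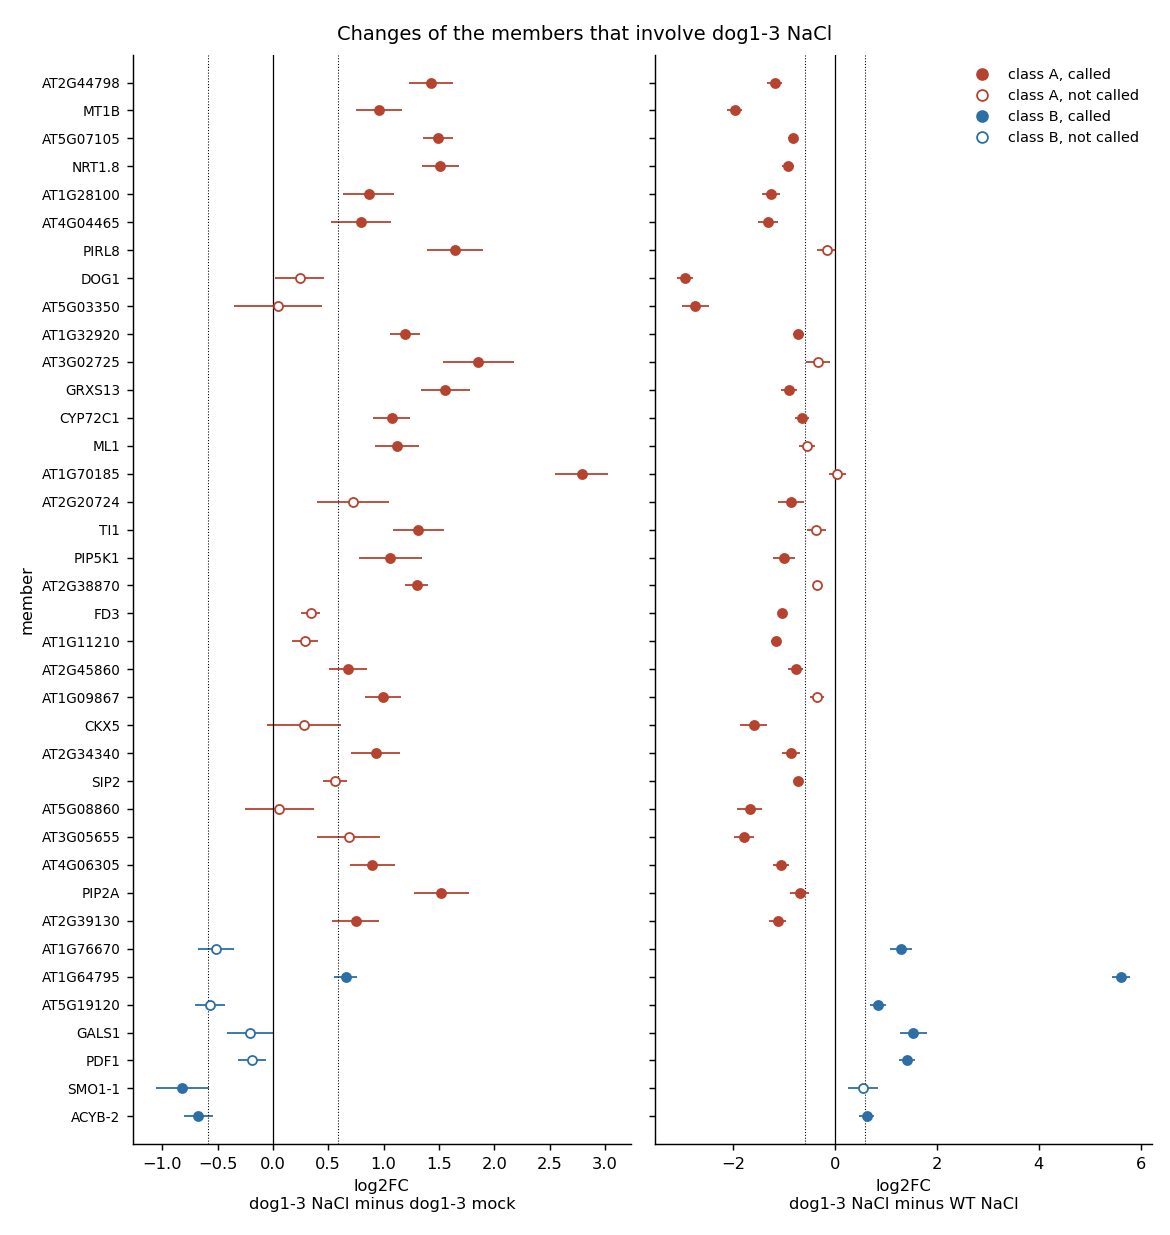
Change of each member in dog1-3 NaCl relative to dog1-3 mock (left) and relative to WT NaCl (right), as log2FC with its standard error, class A in red and class B in blue. Filled points were called by edgeR and dotted lines mark 1.5-fold, so that 25 members are filled on the left and 30 on the right.

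With both factors together, dog1-3 NaCl differed from WT mock in 15 of the 38 members, against 37.3% of all tested genes. In class A 6 members were upregulated, against 18.5% of all genes, and 6 downregulated, against 18.7%, and 3 class B members were upregulated. This split rested on the scaling. With library size alone, which moved the median log2FC of all genes to -0.37 in this comparison, 2 class A members were upregulated and 11 downregulated. In 16 of 31 class A members the mean of dog1-3 NaCl lay between those of dog1-3 mock and WT mock, in 13 it lay between WT mock and WT NaCl, and 1 member lay beyond each end. The measured level of class A members in dog1-3 NaCl differed from the sum of both single changes by a median of 0.06 (range -0.82 to 0.75), and by less than 0.5 in 24 of 31. In class B the median of this difference was 0.43 (range -0.16 to 1.30), and 5 of 7 members were within 0.5. Over all 9934 kept loci 95.1% were within the same limit. This difference contains both changes used by the rule, so that members and other loci cannot be compared on it. No member and only 1 of 12697 genes (0.00788%, with 0% in the upward direction) was called for the salt-by-genotype interaction. That contrast contains both changes used by the rule, so that nothing is read from the members in it.

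**Figure D3:**
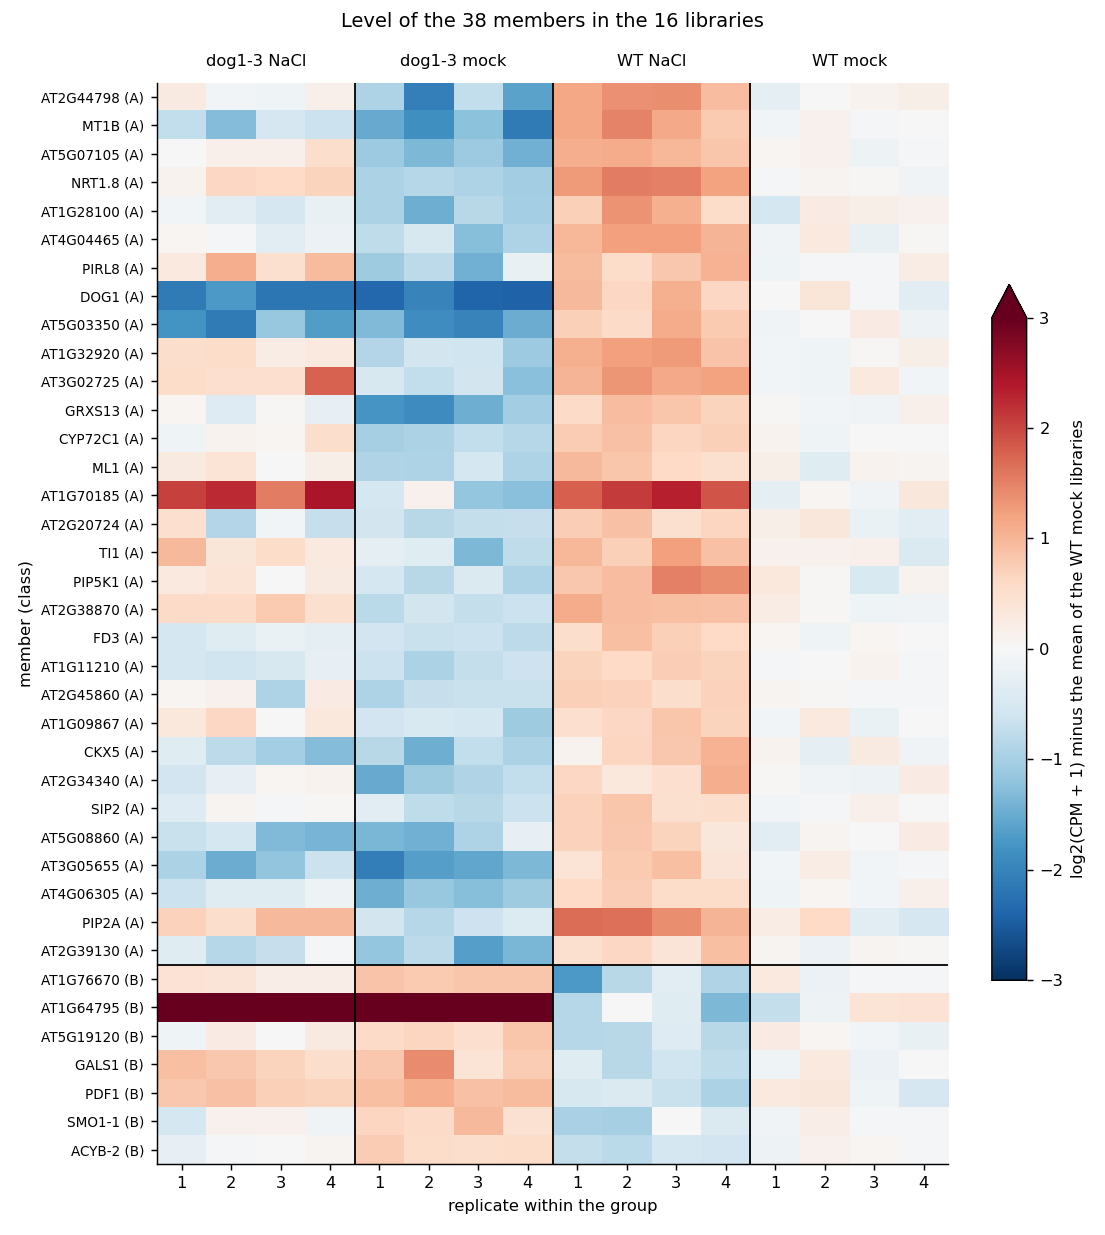
Level of the 38 members (rows, class A above class B) in the 16 libraries (columns), as log2(CPM + 1) minus the mean of the WT mock libraries of that gene. In class A the WT NaCl block is red and the dog1-3 mock block blue, and the dog1-3 NaCl block varies from blue (DOG1, AT5G03350) to red (AT1G70185), while AT1G64795 is at the red end of the colour scale in the dog1-3 libraries.

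All 6 snoRNA members were in class A, and 5 of them were upregulated by NaCl in dog1-3, against 7.53% of all genes. snoR139 was the most abundant, at 57.7, 63.8, 63.6 and 82.6 CPM in dog1-3 NaCl and 26.4, 22.0, 26.1 and 20.3 CPM in dog1-3 mock. WT libraries had 122, 125, 115 and 103 CPM of it in NaCl and 59.9, 63.1, 51.6 and 54.7 CPM in mock. All NaCl libraries exceeded all mock libraries within each genotype, and in NaCl every dog1-3 library was below every WT library. Its log2FC was 1.49 (standard error 0.13, edgeR adjusted p = 5.63e-11) for NaCl in dog1-3 and -0.82 (standard error 0.11, edgeR adjusted p = 6.01e-08) for dog1-3 in NaCl.

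AtsnoR6-3 had 10.2, 9.31, 7.68 and 8.49 CPM in dog1-3 NaCl and 5.28, 6.71, 3.41 and 4.68 CPM in dog1-3 mock, against 20.5, 24.2, 24.2 and 20.7 CPM in WT NaCl and 8.93, 12.2, 8.15 and 10.0 CPM in WT mock. NaCl libraries were again above mock libraries in both genotypes, although the log2FC of 0.79 in dog1-3 (standard error 0.27, edgeR adjusted p = 0.0234) lost its call with library size alone and without dog1-3 mock replicate 3 or 4 or dog1-3 NaCl replicate 1. snoR80-3 had 12.9, 16, 15.9 and 18.5 CPM in dog1-3 NaCl and 6.86, 8.95, 7.96 and 9.36 CPM in dog1-3 mock, against 31.9, 35.4, 30.9 and 31.1 CPM in WT NaCl and 19.0, 21.7, 19.5 and 23.2 CPM in WT mock. Its 4 groups did not overlap, with a log2FC of 0.90 for NaCl in dog1-3 (standard error 0.20, edgeR adjusted p = 0.000751).

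For snoR142 and snoR85b the dog1-3 NaCl libraries overlapped those of WT NaCl. In dog1-3 NaCl, snoR142 had 9.69, 9.31, 9.32 and 23.9 CPM, so that 1 library (replicate 4) stood far above the others, against 4.22, 3.36, 3.98 and 2.08 CPM in dog1-3 mock, 13.8, 17.2, 15.2 and 15.8 CPM in WT NaCl and 5.96, 5.71, 7.91 and 5.86 CPM in WT mock. Its salt change in dog1-3 was 1.86 (standard error 0.32, edgeR adjusted p = 2.52e-05), and its change in dog1-3 against WT in NaCl was -0.33 (adjusted p = 0.309 from the same test), which passed the limits only without that library. snoR85b averaged 35.7 ± 6.50 CPM in dog1-3 NaCl, 17.7 ± 3.22 CPM in dog1-3 mock, 45.2 ± 4.46 CPM in WT NaCl and 28.4 ± 4.49 CPM in WT mock (SD, n = 4 each), and it rose with NaCl in dog1-3 (log2FC 0.99, standard error 0.17, edgeR adjusted p = 1.36e-05). AtsnoR19-2 was the exception, at 8.31, 9.31, 4.94 and 4.63 CPM in dog1-3 NaCl and 4.75, 4.47, 6.82 and 11.4 CPM in dog1-3 mock. Both groups overlapped, and no salt change was detected in dog1-3 (log2FC 0.06, standard error 0.31, edgeR adjusted p = 0.917).

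The whole snoRNA class was examined after the values of the members had been seen. Of 75 tested snoRNA loci, 6 were members, which the rule chose on 2 of the comparisons, and 69 were not. Among these 69, NaCl upregulated 33 and downregulated none in WT, against 9.46% and 7.07% of all genes. In dog1-3 mock 33 of them were lower and 1 higher than in WT mock, against 8.44% and 9.94%. NaCl in dog1-3 upregulated 30 of the 69 loci and downregulated none, against 7.53% and 7.16% of all genes. Their median log2FC was 0.66. In dog1-3 against WT in NaCl, 31 of 69 were downregulated and none upregulated, against 7.54% and 8.16%, with a median of -0.65. The summed level of these 69 loci was 1117 to 1243 CPM in dog1-3 NaCl, 678 to 767 CPM in dog1-3 mock, 1329 to 1536 CPM in WT NaCl and 814 to 951 CPM in WT mock. The ranges of the 4 groups did not overlap. Directions were the same with library size alone, for all 75 loci with the members included. Their median log2FC was then 0.53 for NaCl in dog1-3, against -0.19 over all tested genes. For dog1-3 against WT in NaCl it was -0.89, against -0.25 over all tested genes. Spliceosomal snRNA loci, which are also short and nuclear, shared the increase with NaCl. Of 17, 16 were upregulated in WT, against 9.46% of all genes, and 12 in dog1-3, against 7.53%. None of 17 was called between genotypes, with a median log2FC of -0.12 in mock and -0.41 in NaCl. Only 2 snRNA loci had a mean count of at least 20, against 37 snoRNA loci, and a difference between both classes was not tested. With library size alone, 2 and 7 of the 17 were lower in dog1-3 in mock and in NaCl, with medians of -0.29 and -0.63. All tested genes had medians of -0.18 and -0.25 under that scaling, and their shares called were not counted.

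**Figure D4:**
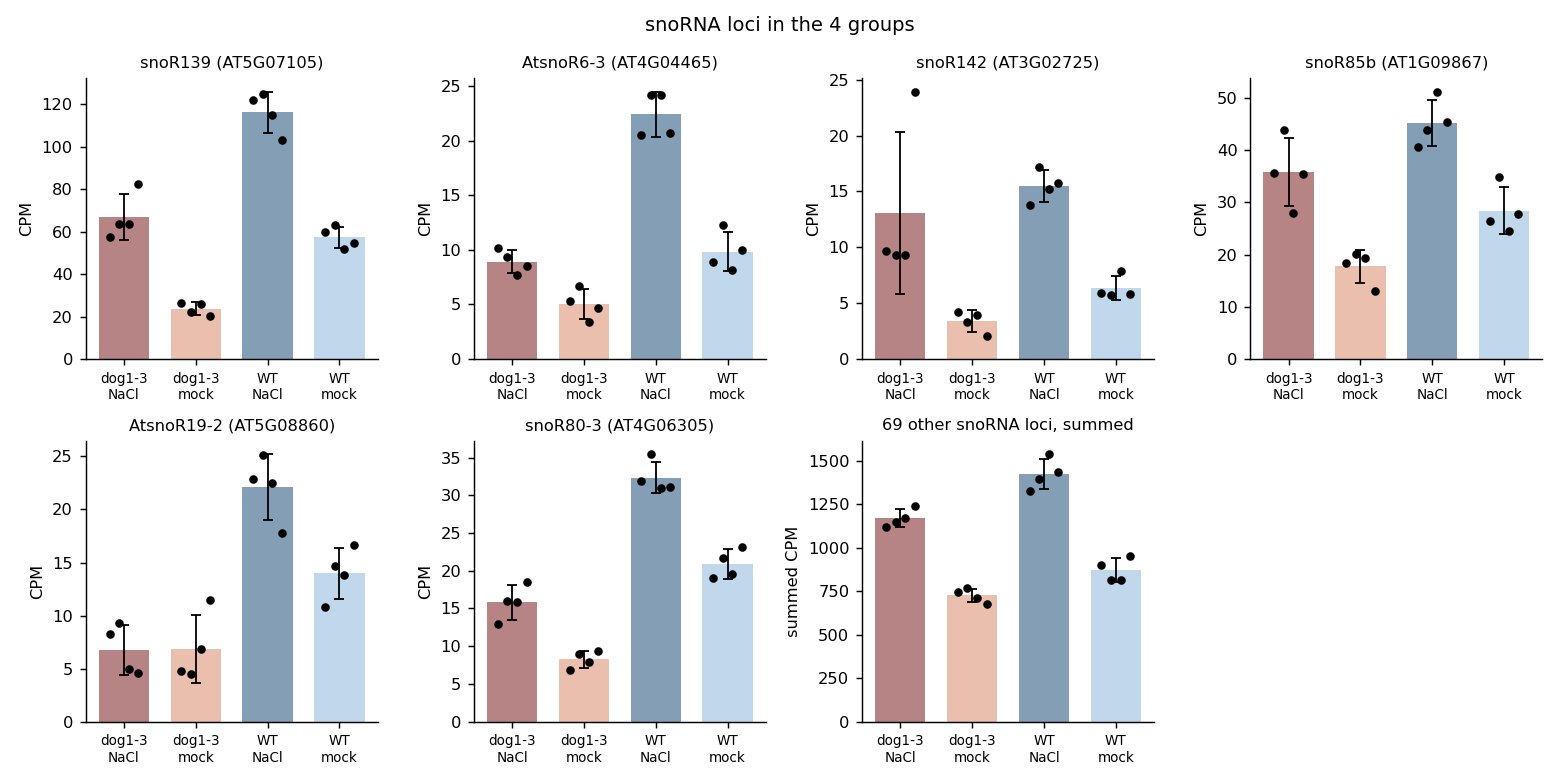
Level of the 6 snoRNA members and summed level of the 69 other tested snoRNA loci, in CPM, in dog1-3 NaCl, dog1-3 mock, WT NaCl and WT mock. Bars and whiskers are means and SD of 4 libraries and points are libraries, and in each panel except AtsnoR19-2 the NaCl bar stands above the mock bar in both genotypes.

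The list of aquaporins and ion, nitrate and sugar transporters held 2 class A members and 1 class B member. NRT1.8, which removes nitrate from the xylem sap, had 24.5, 35.2, 34.6 and 36.3 CPM in dog1-3 NaCl and 11.1, 11.9, 11.4 and 10.4 CPM in dog1-3 mock. WT had 56.3, 66.6, 66.4 and 53.3 CPM in NaCl and 22.0, 23.9, 23.2 and 21.0 CPM in mock. None of the 4 groups overlapped. NaCl raised NRT1.8 in dog1-3 2.85-fold (log2FC 1.51, standard error 0.17, edgeR adjusted p = 8.83e-09), and dog1-3 NaCl stayed below WT NaCl by a log2FC of -0.92 (standard error 0.12, edgeR adjusted p = 1.96e-07). The gene overlaps CPL1 on the opposite strand, whose own changes in these comparisons were -0.30 and -0.25.

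PIP2A, a water channel of the plasma membrane, had 22.6, 19.9, 27.4 and 27.8 CPM in dog1-3 NaCl and 8.97, 7.08, 8.53 and 9.88 CPM in dog1-3 mock. In WT it had 45.3, 45.2, 37.1 and 28.6 CPM in NaCl and 16, 21.2, 10.6 and 9.28 CPM in mock. NaCl and mock were apart in both genotypes, while the mock libraries of dog1-3 and WT overlapped. NaCl raised it 2.87-fold in dog1-3 (log2FC 1.52, standard error 0.25, edgeR adjusted p = 9.96e-06). AT1G76670, which carries nucleotide sugars into the Golgi for cell wall synthesis, had the reverse order, with 22.6, 21.9, 19.2 and 19.3 CPM in dog1-3 NaCl, 30.6, 29.5, 30.1 and 30.2 CPM in dog1-3 mock, 4.29, 8.85, 12.9 and 8.39 CPM in WT NaCl and 20.5, 14.7, 15.8 and 15.9 CPM in WT mock. It was 2.46-fold higher in dog1-3 than in WT in NaCl (log2FC 1.30, standard error 0.21, edgeR adjusted p = 7.19e-06). Of the 63 tested genes of this list, 5 were upregulated and 4 downregulated by NaCl in dog1-3, near the 7.53% and 7.16% of all genes. In dog1-3 against WT in NaCl, 6 were upregulated and 14 downregulated, against 8.16% and 7.54% of all genes.

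**Figure D5:**
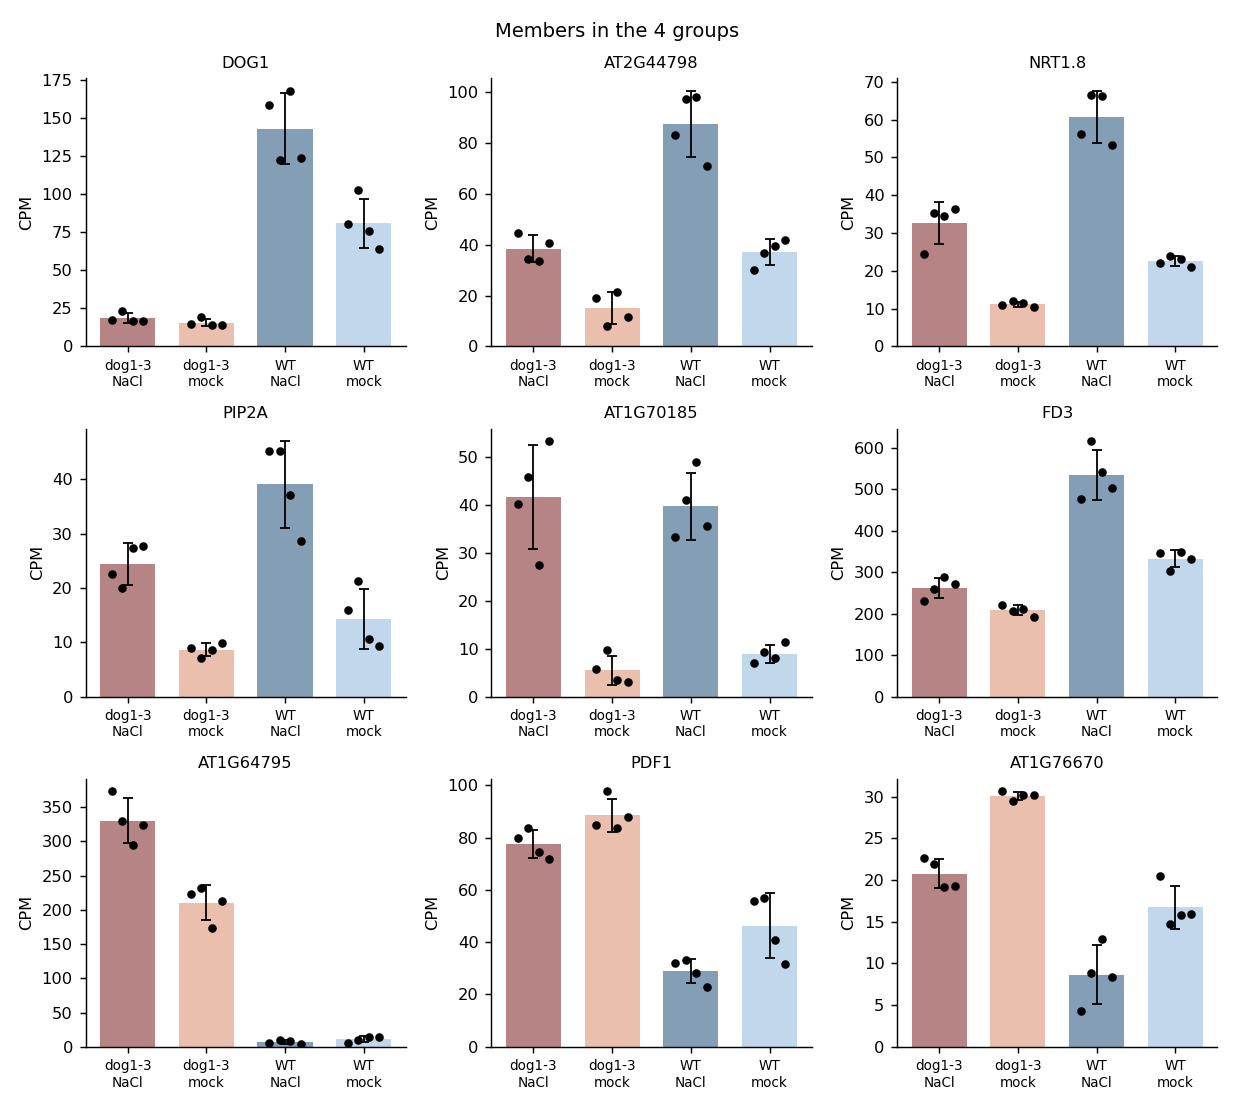
Level in CPM of 9 members in dog1-3 NaCl, dog1-3 mock, WT NaCl and WT mock, with bars and whiskers as means and SD of 4 libraries and points as libraries. DOG1 is at most 23.3 CPM in all dog1-3 libraries, the AT1G70185 libraries of dog1-3 NaCl and WT NaCl overlap, and AT1G64795 is at least 173 CPM in dog1-3 and at most 14.4 CPM in WT.

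Among class A members the log2FC with NaCl in dog1-3 ranged from 0.05 to 2.79. AT1G70185, an annotated non-coding RNA at chr1:26429733-26430069, had the largest salt change, with 40.2, 45.9, 27.4 and 53.3 CPM in dog1-3 NaCl and 5.80, 9.69, 3.41 and 3.12 CPM in dog1-3 mock. WT had 33.4, 41.0, 48.9 and 35.5 CPM in NaCl and 7.07, 9.24, 8.15 and 11.5 CPM in mock. In mock dog1-3 and WT overlapped, and AT1G70185 was the 1 member not called there (log2FC -0.61, standard error 0.29, edgeR adjusted p = 0.0963). Both genotypes also overlapped in NaCl, with a log2FC of 0.05 (standard error 0.17, edgeR adjusted p = 0.874). NaCl raised the RNA 6.91-fold in dog1-3 (log2FC 2.79, standard error 0.24, edgeR adjusted p = 2.21e-11). PIRL8, a leucine-rich repeat protein, likewise overlapped between genotypes in NaCl, but not in mock. It had 13.8, 24.6, 15.9 and 22.4 CPM in dog1-3 NaCl, 4.75, 5.97, 3.41 and 9.36 CPM in dog1-3 mock, 22.4, 16.8, 20.2 and 23.7 CPM in WT NaCl and 10.0, 10.6, 10.6 and 13.2 CPM in WT mock. Its log2FC was 1.65 with NaCl in dog1-3 (standard error 0.25, edgeR adjusted p = 3.05e-06) and -0.16 in dog1-3 against WT in NaCl (standard error 0.19, edgeR adjusted p = 0.574).

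At the low end of this range, AT5G03350, a legume lectin family protein, had 2.77, 1.99, 4.94 and 3.09 CPM in dog1-3 NaCl and 4.22, 2.61, 2.27 and 3.64 CPM in dog1-3 mock, against 20.5, 18.6, 27.6 and 21.7 CPM in WT NaCl and 11.2, 12.2, 14.6 and 10.7 CPM in WT mock. All dog1-3 libraries were below all WT libraries, as for DOG1, and NaCl and mock overlapped in dog1-3 (log2FC 0.05, standard error 0.40, edgeR adjusted p = 0.946). In NaCl it was 6.68-fold lower in dog1-3 than in WT (log2FC -2.74, standard error 0.26, edgeR adjusted p = 7.29e-11). It overlaps AT5G03345 on the opposite strand, which averaged 44.7 CPM and had a log2FC of -0.43 in the same comparison. CKX5, which breaks down cytokinin, was likewise not called for salt in dog1-3 (log2FC 0.28, standard error 0.34, edgeR adjusted p = 0.581) and was 3.02-fold lower in dog1-3 than in WT in NaCl. CKX5 and the members AT3G05655, AT1G11210 and AT2G20724 were chosen for description after their values had been seen. None of these passed both limits for NaCl in dog1-3, with log2FC of 0.69 for the lncRNA AT3G05655, 0.29 for AT1G11210 and 0.73 for the pseudogene AT2G20724. AT3G05655 passed them without dog1-3 mock replicate 4 or dog1-3 NaCl replicate 2, and AT2G20724 without dog1-3 NaCl replicate 2.

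The lncRNA AT2G44798 (chr2:18466053-18471304, minus strand), which is annotated as antisense to AT2G44800, exceeded the other members in the smaller of both changes of the rule, 1.21 with NaCl in WT against -1.33 in dog1-3 mock. It had 44.8, 34.6, 33.5 and 40.9 CPM in dog1-3 NaCl and 19.0, 8.20, 21.6 and 11.4 CPM in dog1-3 mock, against 83.4, 97.4, 98.4 and 71.1 CPM in WT NaCl and 30.1, 37.0, 39.5 and 41.8 CPM in WT mock. The dog1-3 NaCl and WT mock libraries overlapped, with a log2FC of 0.07 between them (standard error 0.15, edgeR adjusted p = 0.738). AT2G44800 averaged only 6.21 CPM and had a log2FC of -0.45 with NaCl in dog1-3 and -1.59 in dog1-3 against WT in NaCl, and the sources do not say if reads were assigned by strand. MT1B, a cysteine-rich metallothionein that binds metals, had 25.8, 17.3, 30.7 and 27.8 CPM in dog1-3 NaCl and 14.8, 11.6, 18.2 and 9.36 CPM in dog1-3 mock, against 99.6, 125, 97.8 and 76.0 CPM in WT NaCl and 41.7, 48.1, 42.3 and 44.2 CPM in WT mock. Salt raised it in dog1-3 with overlapping libraries (log2FC 0.96, standard error 0.21, edgeR adjusted p = 0.000553), yet every dog1-3 NaCl library stayed below every WT mock library. AT2G44798, MT1B and snoR139 were the 3 members that still met the rule at a 2-fold limit.

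Among metabolic genes of class A, FD3 was the most abundant member. It encodes a ferredoxin of non-photosynthetic plastids, although it stood in the list of photosynthesis genes. Levels were 232, 259, 289 and 272 CPM in dog1-3 NaCl and 222, 208, 212 and 192 CPM in dog1-3 mock, against 477, 616, 542 and 503 CPM in WT NaCl and 346, 303, 348 and 332 CPM in WT mock. The NaCl libraries exceeded the mock libraries in both genotypes, but in dog1-3 the log2FC of 0.34 was under 1.5-fold (standard error 0.09, edgeR adjusted p = 0.00321). In NaCl it was 2.04-fold lower in dog1-3 than in WT (log2FC -1.03, standard error 0.08, edgeR adjusted p = 1.54e-12). SIP2, which hydrolyses raffinose, had 114, 160.3, 145 and 153 CPM in dog1-3 NaCl and 118, 88.7, 84.1 and 96.2 CPM in dog1-3 mock, against 242, 268, 209.7 and 217 CPM in WT NaCl and 142, 144, 168 and 148 CPM in WT mock. Its groups in dog1-3 overlapped through mock replicate 1 and NaCl replicate 1, and leaving out either of these brought its log2FC of 0.56 past the limits. CYP72C1, a cytochrome P450 that inactivates brassinosteroids, averaged 28.4 ± 6.02 CPM in dog1-3 NaCl, 13.3 ± 1.15 CPM in dog1-3 mock, 43.3 ± 2.97 CPM in WT NaCl and 25.4 ± 1.82 CPM in WT mock (SD, n = 4 each). It rose with NaCl in dog1-3 (log2FC 1.08, standard error 0.17, edgeR adjusted p = 4.49e-06) and was lower in dog1-3 than in WT in NaCl (log2FC -0.65, standard error 0.13, edgeR adjusted p = 0.000227), a call lost without dog1-3 NaCl replicate 1.

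Defence and redox proteins of class A included AT2G38870, a potato inhibitor I-type protease inhibitor, with 140.3, 141, 164 and 131 CPM in dog1-3 NaCl and 53.3, 64.5, 56.8 and 60.3 CPM in dog1-3 mock. In WT it had 205, 179, 177 and 173 CPM in NaCl and 109, 96.0, 85.7 and 88.1 CPM in mock. The groups did not overlap in any pair, and NaCl raised it 2.46-fold in dog1-3 (log2FC 1.30, standard error 0.10, edgeR adjusted p = 2.51e-12). Its log2FC of -0.35 between dog1-3 and WT in NaCl had an adjusted p of 0.00299 in edgeR but was under 1.5-fold. The trypsin inhibitor TI1 and the glutaredoxin GRXS13 also rose with NaCl in dog1-3, with log2FC of 1.31 and 1.56, and were described after their values had been seen. The uncharacterized proteins AT1G32920 and AT1G28100 rose in dog1-3 as well, with log2FC of 1.19 and 0.87, and stayed below WT in NaCl by -0.71 and -1.26.

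The remaining class A members were also described after their values had been seen. They were called for NaCl in dog1-3 with log2FC of 1.12 for ML1, an RNA-binding MEI2-like protein, 1.06 for PIP5K1, a lipid kinase that makes phosphatidylinositol bisphosphate, 0.93 for AT2G34340, 0.75 for AT2G39130 and 0.68 for AT2G45860. For AT2G39130 the call was lost with library size alone, and for AT2G45860 with library size alone or without dog1-3 NaCl replicate 4. AT2G39130 overlaps WTF9 on the opposite strand, which averaged 4.94 CPM and had a log2FC of -0.45 with NaCl in dog1-3 and -0.79 in dog1-3 against WT in NaCl.

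Class B held 1 member of another size. AT1G64795 (chr1:24082579-24082848, plus strand), an uncharacterized protein, had 373, 330.5, 295 and 324 CPM in dog1-3 NaCl and 224, 232, 173 and 213 CPM in dog1-3 mock. WT libraries had 5.24, 10.2, 7.87 and 3.46 CPM in NaCl and 5.96, 9.24, 14.1 and 14.4 CPM in mock, with overlap between the treatments. In dog1-3 every NaCl library exceeded every mock library, opposite to the sign in WT, with a log2FC of 0.66 (standard error 0.11, edgeR adjusted p = 8.19e-06), although this passed 1.5-fold neither with library size alone nor without dog1-3 mock replicate 3. In NaCl it was 48.9-fold higher in dog1-3 than in WT (log2FC 5.61, standard error 0.17, edgeR adjusted p = 2.5e-25). Its WT libraries held as few as 7 counts, and it met the rule in 12 of 16 runs that left out 1 library. The gene overlaps ILA on the opposite strand, which averaged 58.3 CPM and had log2FC of 0.53 with NaCl in dog1-3 and -0.07 in dog1-3 against WT in NaCl.

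PDF1, a gene of the epidermis, had 79.9, 83.8, 74.6 and 71.8 CPM in dog1-3 NaCl and 85.0, 97.7, 83.5 and 87.9 CPM in dog1-3 mock, against 31.9, 33.1, 28.1 and 22.7 CPM in WT NaCl and 55.8, 57.1, 41.0 and 31.5 CPM in WT mock. All dog1-3 libraries exceeded all WT libraries, whereas the treatments overlapped in both genotypes. No salt change was detected in dog1-3 (log2FC -0.19, standard error 0.13, edgeR adjusted p = 0.283), and in NaCl it was 2.67-fold higher in dog1-3 than in WT (log2FC 1.42, standard error 0.15, edgeR adjusted p = 9.42e-10). GALS1, which synthesizes the galactan side chains of pectin, averaged 14.4 ± 1.69 CPM in dog1-3 NaCl, 16.3 ± 5.34 CPM in dog1-3 mock, 4.97 ± 0.894 CPM in WT NaCl and 8.31 ± 1.43 CPM in WT mock (SD, n = 4 each). It was 2.90-fold higher in dog1-3 than in WT in NaCl (log2FC 1.54, standard error 0.27, edgeR adjusted p = 1.88e-05).

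In dog1-3, NaCl lowered 2 class B members. ACYB-2, a cytochrome b561 that passes electrons from ascorbate across a membrane, had 22.6, 26.6, 26.9 and 28.6 CPM in dog1-3 NaCl and 46.4, 40.3, 39.8 and 40.1 CPM in dog1-3 mock, against 16.2, 14.9, 18.6 and 17.8 CPM in WT NaCl and 24.2, 29.9, 28.2 and 26.4 CPM in WT mock. The NaCl libraries were below the mock libraries in each genotype (log2FC -0.68 in dog1-3, standard error 0.13, edgeR adjusted p = 0.000129). In NaCl it was higher in dog1-3 than in WT by 0.62 (standard error 0.16, edgeR adjusted p = 0.00206), a call lost with library size alone and without WT NaCl replicate 2 or dog1-3 NaCl replicate 4. SMO1-1, an enzyme of sterol synthesis, had 5.54, 9.31, 9.32 and 7.72 CPM in dog1-3 NaCl and 13.7, 13.1, 17.6 and 12 CPM in dog1-3 mock, with no overlap. WT had 3.81, 3.73, 8.43 and 5.92 CPM in NaCl and 7.82, 9.79, 8.15 and 8.06 CPM in mock, with overlap. Its log2FC of -0.82 with NaCl in dog1-3 (standard error 0.24, edgeR adjusted p = 0.00823) lost its call without dog1-3 NaCl replicate 1. In NaCl no difference of SMO1-1 between dog1-3 and WT was detected (log2FC 0.54, edgeR adjusted p = 0.174). It met the rule in 12 of 16 runs that left out 1 library. The aspartyl protease AT5G19120 and AT1G76670 were also below dog1-3 mock in all 4 dog1-3 NaCl libraries, with log2FC of -0.57 and -0.51 that were under 1.5-fold. Both passed 1.5-fold with library size alone, and AT5G19120 also without dog1-3 mock replicate 3 or dog1-3 NaCl replicate 2 or 4.

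Of 20 gene lists, 4 held a member. Members made up 0.38% of all kept loci, so that nothing is read from a list without a member. The list of ABA signalling and seed maturation regulators (27 tested) held DOG1, the photosynthesis list (49) held FD3, the transporter list held 3 members, and the list of cytochromes P450 and UDP-glycosyltransferases (109) held CYP72C1. Late embryogenesis abundant proteins and dehydrins, which protect cells during drying, had no member. Of 41 tested genes, 15 were upregulated and none downregulated by NaCl in dog1-3, against 7.53% and 7.16% of all genes. In dog1-3 against WT in NaCl, 24 were upregulated and 1 downregulated, against 8.16% and 7.54%. Cell wall loosening genes and seed storage and oil body genes held no member either.

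The 250 bases before the annotated start of each protein-coding gene were searched on both strands for 7 short motifs. ACGTG, the core of ABA-responsive elements, was found in 5 of 21 class A members (AT1G11210, AT1G32920, CKX5, SIP2 and AT5G03350) and 2 of 7 class B members (PDF1 and AT5G19120), against 24.0% of 9749 kept protein-coding genes. CACGTG, which contains ACGTG, was found in 2 and 1, against 8.81%, and CCGAC in 3 and 2, against 14.6%. TTGACC was found in 1 and 1, against 11.7%, and GGGCC in 1 and 1, against 23.8%. AAAATATCT and AAACCCTA were found in no member, against 2.48% and 4.14% of the kept genes. These matches are counts of letters, and no test was made on them.

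Chromosomes 1 to 5 held 11, 10, 4, 6 and 7 members, against 2544, 1473, 2000, 1506 and 2358 kept loci, and the shares were not tested. The nearest pair of members, AT2G38870 and AT2G39130, lay 86699 bases apart. A gene on the opposite strand overlapped 10 of 38 members (26.3%), against 29.7% of 9881 kept loci in the annotation.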

How the data were processed

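Gene expression in 16 libraries was measured by 3'RNA-seq, with grouping and replicate numbers read from the titles of the samples. The authors deposited unnormalized read counts per locus. The submitters' processing notes name STAR 2.7.8a, DESeq2 and TAIR10, while the counting program, the use of strand and of molecular identifiers are not given in the sources used here. Names and positions were taken from RefSeq TAIR10.1, in which 37051 loci matched.

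Members, gene lists and comparisons were chosen with earlier results of these data known. The rule used TMM factors from all loci. Genes were tested with edgeR 4.0.16 (R 4.3.3), using TMM scaling, filterByExpr with a minimum count of 10, and the quasi-likelihood F test in a model with 4 group means, which left 12697 genes. Standard errors are the log2FC divided by the square root of F. The genes named were DOG1, in each class the 10 members with the largest smaller change and the 5 with the highest mean CPM, members of a gene list and members called in dog1-3 against their direction in WT. Alternatives covered DESeq2 1.42.0, scaling, filters, thresholds, libraries in the fit, a replicate block and each library left out. The scripts were tested on simulated data. Precision is limited by counts as low as 3 per library in the weakest members, and p-values cover the spread between replicates only.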

Additional observations from a re-analysis of the deposited data

Results flagged for a closer look

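In 14 of 152 groups of 4 libraries, 1 library of a member stood apart from the other 3, where chance flags about 1 in 20 groups. Low libraries were NRT1.8 in dog1-3 NaCl replicate 1 (24.5 CPM), AT1G28100 in WT mock replicate 1 (17.9 CPM), TI1 in WT mock replicate 4 (9.52 CPM), AT2G45860 in dog1-3 mock replicate 1 (15.8 CPM) and in dog1-3 NaCl replicate 3 (15.9 CPM), and AT2G39130 in WT mock replicate 2 (23.9 CPM). High libraries were DOG1 in dog1-3 mock replicate 2 (19.0 CPM) and in dog1-3 NaCl replicate 2 (23.3 CPM), snoR142 (AT3G02725) in WT mock replicate 3 (7.91 CPM) and in dog1-3 NaCl replicate 4 (23.9 CPM), and ML1 in dog1-3 mock replicate 3 (11.9 CPM). AT3G05655 in WT mock replicate 2 (21.7 CPM), AT5G19120 in WT NaCl replicate 3 (21.9 CPM) and ACYB-2 in dog1-3 mock replicate 1 (46.4 CPM) were high as well. For snoR142 the other dog1-3 NaCl libraries lay between 9.31 and 9.69 CPM.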

How the results depend on the processing

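The set had 38 members, and 3 at a 2-fold limit, 20 at a mean count of at least 50, and 58 when both comparisons were called by edgeR with no limit on means. It had 36 with library size alone (25 shared), 39 with RLE factors, 42 with scaling without the 20 highest genes, 55 at a mean count of at least 10, 44 with log2(CPM + 0.5) and 39 with TMM factors from filtered loci, an alternative chosen after seeing the data. Without 1 library it had 32 to 44. At a 2-fold limit, calls fell to 14 for NaCl in dog1-3, 17 for dog1-3 in NaCl and 6 for dog1-3 NaCl against WT mock, and without 1 library they lay between 24 and 28, 29 and 31, and 14 and 15. On adjusted p alone they were 29, 32 and 22. Shares of all tested genes were not counted at the 2-fold limit or on adjusted p alone, so that nothing is read from these counts. DESeq2, RLE factors and the replicate block each gave 25, 30 and 15, as in the report. Same-numbered libraries correlated by -0.10 to 0.14, with 1 of 24 pairs over 0.1. Between mock and NaCl the same-number values were 0.064 to 0.14 within WT and 0.011 to 0.087 within dog1-3. Whether same-numbered libraries share seed material was not tested, and low correlations cannot exclude it.

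With library size alone the median log2FC of all genes was -0.12 for NaCl in WT, -0.18 for dog1-3 in mock, -0.19 for NaCl in dog1-3 and -0.25 for dog1-3 in NaCl. Some changes that were not called turned sign under it. For NaCl in dog1-3 these were AT5G03350 (-0.12) and AT5G08860 (-0.12), and for dog1-3 in NaCl AT1G70185 (-0.18). For dog1-3 NaCl against WT mock they were CYP72C1 (-0.19), AT2G44798 (-0.28), AT5G07105 (-0.12), AT5G19120 (-0.23), ML1 (-0.11), PIP5K1 (-0.054) and AT1G09867 (-0.0062). Without 1 library, log2FC for NaCl in dog1-3 ranged from -0.25 to 0.21 in AT5G03350, from -0.15 to 0.41 in AT5G08860 and from -0.33 to 0.082 in GALS1, and for dog1-3 in NaCl from -0.075 to 0.21 in AT1G70185. For dog1-3 NaCl against WT mock it ranged from -0.036 to 0.14 in AT2G44798, from -0.20 to 0.020 in AT4G04465, from -0.12 to 0.038 in SIP2, from -0.19 to 0.087 in SMO1-1 and from -0.093 to 0.022 in ACYB-2, and its sign also turned in AT2G20724 and AT2G45860. The cause was not tested.

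Depth limits members near the count minimum, such as AT5G03350 with 3 counts in its lowest library.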
